A study of Rattus norvegicus with 6 samples.

Results

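The expression of 6 microglial and complement C1q genes was examined in polyadenylated RNA of the superficial superior colliculus, the midbrain layers that receive retinal input. The genes were chosen by identifier: Aif1 (ENSRNOG00000000853), Itgam (ENSRNOG00000019728), Cx3cr1 (ENSRNOG00000018509) and the C1q chain genes C1qa, C1qb and C1qc (ENSRNOG00000012807, ENSRNOG00000012749 and ENSRNOG00000012804), 6 of 26402 identifiers in the expression table. Because no source used here pairs each C1q identifier with its chain, those 3 are treated as one family and named by identifier. All libraries came from Sprague Dawley rats at postnatal day 20. In the closed group (3 libraries) the eyelids were glued shut from day 14 to day 20, and in the open group (3 libraries) the eyes were open over those days. Every batch (A, B, C) contributed 1 closed and 1 open library. The sources used here do not say what sets the batches apart or how many animals a library holds, so p-values measure the spread between these libraries, which may be technical.

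Microglia are the resident macrophages of the brain. Aif1 encodes the calcium-binding protein Iba1, the common histological marker of these cells. Itgam encodes CD11b, a subunit of complement receptor CR3, and Cx3cr1 encodes the receptor for the neuronal chemokine fractalkine. C1q is the recognition protein of the classical complement pathway, built from A, B and C chains in equal numbers, and in the brain it is made mainly by microglia. In developing visual pathways C1q can mark synapses, after which complement receptors on microglia take part in their removal.

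All 6 genes were detected in every library, and for none did the difference between eye states pass the test. Levels are given in FPKM, which divides fragments by transcript length and library size, a scale that allows levels to be compared between genes. The summed FPKM of all identifiers was 331008 to 332862 in the libraries of batch C and 385309 to 398847 in the other 4 libraries, and the number of identifiers at 1 FPKM or more was 12141 to 12159 in batch C against 12295 to 12458 elsewhere. Markers of other cell types could not be matched to identifiers, so the cellular make-up of the tissue pieces was not tested. In bulk tissue, fewer microglia and less RNA per microglial cell cannot be told apart.

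Averaged over the 6 libraries, the highest of the 6 genes was the C1q gene ENSRNOG00000012807 at 16.0 FPKM, followed by the C1q gene ENSRNOG00000012749 at 15.2, Aif1 at 13.9, Cx3cr1 at 10.6, the C1q gene ENSRNOG00000012804 at 7.14 and Itgam at 2.18. The top 3 were not separated by level, since ENSRNOG00000012807 exceeded ENSRNOG00000012749 in 4 of 6 libraries and ENSRNOG00000012749 exceeded Aif1 in 5 of 6. The lower steps of the order, from Aif1 to Cx3cr1, to ENSRNOG00000012804 and to Itgam, held in 6 of 6 libraries each. Aif1 stood at 1.08 to 1.70 times the FPKM of Cx3cr1, and Itgam at 0.180 to 0.217 times. The median of the 6 genes was 12.3 FPKM, against 8.85 FPKM over the 12351 identifiers with a mean of at least 1 FPKM, all of which entered the tests.

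**Figure D1:**
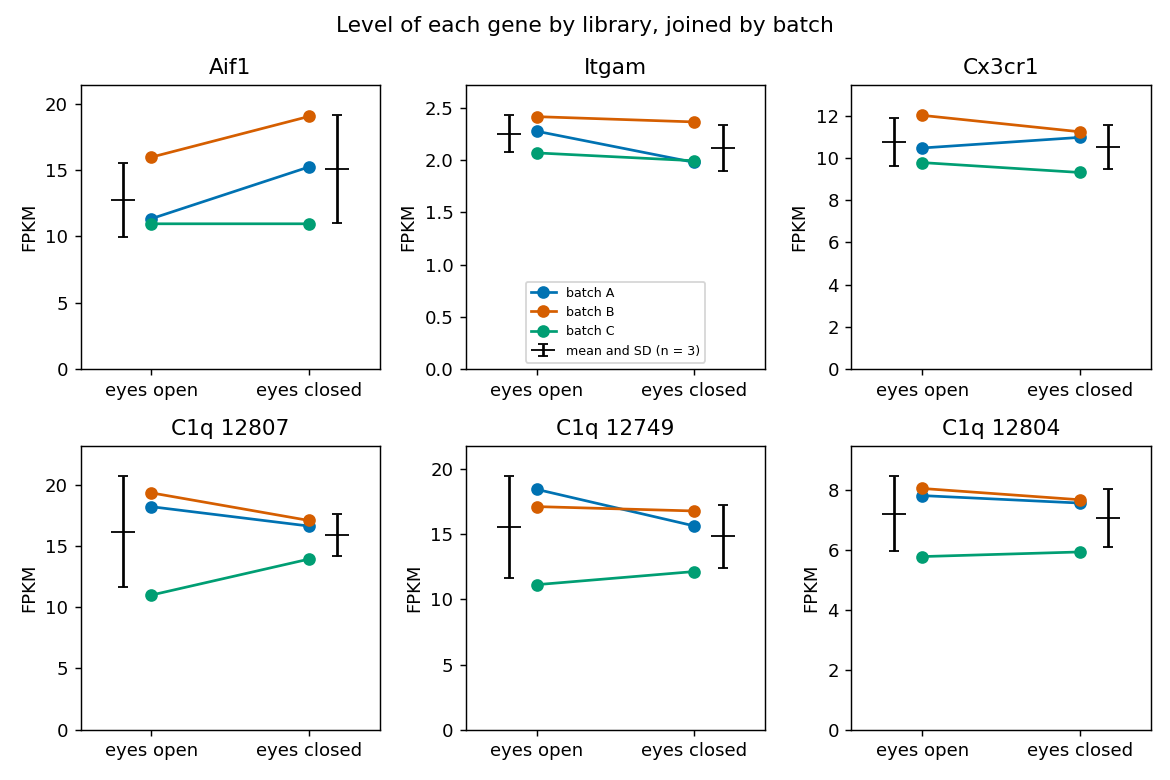
FPKM of the 6 genes (vertical axes, from 0) in eyes-open and eyes-closed libraries, 1 point per library, joined by batch, with the group mean and SD (n = 3) beside the points. Each C1q gene is titled by the end of its identifier. Closed and open libraries overlapped for all 6 genes, and both batch C libraries lay below all others for 5 of the 6, all but Itgam.

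Among the microglial genes, Aif1 had the largest difference between the groups. Its level was 15.2, 19.1 and 11.0 FPKM with closed eyes and 11.3, 16.0 and 11.0 FPKM with open eyes in batches A, B and C. The closed library was above the open one in batches A and B and level with it in batch C, and the groups overlapped. The group means were 15.1 ± 4.06 FPKM with closed and 12.8 ± 2.80 FPKM with open eyes (SD, n = 3 each). Within batches, closed minus open was 0.41 in A, 0.25 in B and 5.04e-05 in C on the log2(FPKM + 0.5) scale. Closed was nominally higher in all 3 batches, as for 8.4% of all identifiers tested, but in batch C only by that margin. There the order turned, to -0.0077, when libraries were scaled to the same FPKM sum.

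The Aif1 difference did not pass the test. In limma without regard to batch, the log2 difference was 0.22 (SE 0.22, adjusted p = 1 by Benjamini-Hochberg), a fold of 1.16 with a 95% interval of 0.814 to 1.66. With the batch as a block the interval of the fold was 1.02 to 1.33, with an unadjusted p of 0.0301 and an adjusted p of 0.781 in limma. Such an unadjusted p under 0.05 with the block was reached by 6.32% of all identifiers, and by 2% in the direction of higher closed values. The size varied with the library left out in the fit without the block, where a missing library also unbalances the batches. Leaving out the closed library of batch B gave a log2 difference of 0.038, and leaving out its open library gave 0.39. In the same order, the values were 0.19 and 0.15 for batch A and 0.42 and 0.12 for batch C. Leaving out whole batches in the fit with the block keeps the pairs. There the log2 difference was 0.12 without batch A, 0.21 without batch B and 0.33 without batch C.

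Itgam, the CD11b gene, was the lowest of the 6. It measured 1.98, 2.37 and 1.99 FPKM with closed eyes and 2.28, 2.42 and 2.07 FPKM with open eyes in batches A, B and C, so the highest library was 1.22 times the lowest. The means were 2.11 ± 0.219 FPKM for the closed and 2.25 ± 0.175 FPKM for the open group (SD, n = 3 each). Closed lay below open in each batch, with log2 differences of -0.16, -0.025 and -0.043. Of all identifiers, 19.5% were likewise lower in closed eyes in all 3 batches. The limma log2 difference was -0.077 (SE 0.12, adjusted p = 1), and the 95% interval of the fold was 0.778 to 1.15.

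Cx3cr1, the fractalkine receptor gene, measured 11.0, 11.2 and 9.32 FPKM with closed and 10.5, 12.02 and 9.78 FPKM with open eyes in batches A, B and C. Closed was above open in batch A and below it in batches B and C, so the batches did not share a direction. Group means were 10.5 ± 1.05 and 10.8 ± 1.15 FPKM for closed and open eyes (SD, n = 3 each). The log2 difference in limma was -0.032 (SE 0.13, adjusted p = 1), with a fold between 0.794 and 1.21 at 95%, and its sign turned (0.00071) when libraries were scaled to the same median.

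The C1q genes followed one another from library to library, as many other identifiers followed them. Promoters are shown as a description of sequence only, and a link to this pattern was not tested. In RefSeq's annotation of the assembly GRCr8, C1qb, C1qc and C1qa lie next to each other on chromosome 5 with 0 other genes between them. Promoter sequences matched by symbol for 4 of the 6 genes (Itgam, Cx3cr1, C1qa and C1qb). The 250 bases before the start of C1qa (chr5:154419934-154420183, minus strand) and C1qb (chr5:154407828-154408077, minus strand) read as follows, 5′ to 3′, with matches to GAGGAA on either strand in capitals. These letters are one form of the site bound by PU.1, the lineage factor of macrophages and microglia, and other forms were not searched.
C1qa: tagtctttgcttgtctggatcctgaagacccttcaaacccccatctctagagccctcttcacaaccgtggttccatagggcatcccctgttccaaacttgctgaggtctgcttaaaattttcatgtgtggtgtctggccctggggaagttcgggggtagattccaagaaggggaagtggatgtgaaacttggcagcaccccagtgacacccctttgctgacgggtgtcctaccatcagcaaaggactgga
C1qb: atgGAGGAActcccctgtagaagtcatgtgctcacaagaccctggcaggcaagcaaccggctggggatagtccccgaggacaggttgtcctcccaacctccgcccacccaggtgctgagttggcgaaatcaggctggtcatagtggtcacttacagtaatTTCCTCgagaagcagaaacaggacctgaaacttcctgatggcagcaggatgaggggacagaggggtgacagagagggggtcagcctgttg
The C1qb stretch held 2 matches, beginning 247 and 90 bases before the start, the C1qa stretch 0, that of Itgam 2 and that of Cx3cr1 0. Of 33469 promoter stretches of this length, 23.3% held at least 1 match, so the matches describe these letters only and show no binding.

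The C1q gene ENSRNOG00000012807 measured 16.6, 17.1 and 13.9 FPKM with closed eyes and 18.2, 19.3 and 11.0 FPKM with open eyes in batches A, B and C. Closed libraries were lower in batches A and B and higher in batch C, where the open library was the lowest of the 6. Its means were 15.9 ± 1.70 FPKM with closed and 16.2 ± 4.52 FPKM with open eyes (SD, n = 3 each). In limma the log2 difference was 0.0090 (SE 0.21, adjusted p = 1), with a 95% interval of the fold from 0.714 to 1.42. Its sign turned to -0.24 without the open library of batch C and to -0.0049 with equal FPKM sums.

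ENSRNOG00000012749, the second C1q gene, measured 15.6, 16.8 and 12.1 FPKM with closed and 18.5, 17.1 and 11.1 FPKM with open eyes in batches A, B and C. As for the first, the closed library was the lower one in A and B and the higher one in C. Means were 14.9 ± 2.42 FPKM for the closed and 15.6 ± 3.90 FPKM for the open group (SD, n = 3 each). Its limma log2 difference was -0.046 (SE 0.21, adjusted p = 1), with a fold of 0.691 to 1.36 at 95%, and was 0.088 without the closed library of batch C or the open library of batch A.

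ENSRNOG00000012804, the lowest of the C1q genes, measured 7.57, 7.68 and 5.93 FPKM with closed and 7.82, 8.05 and 5.78 FPKM with open eyes in batches A, B and C. Again closed lay below open in A and B and above it in C, in each case by a small margin. The means were 7.06 ± 0.976 FPKM for the closed and 7.22 ± 1.25 FPKM for the open group (SD, n = 3 each). Batch took 98.1% of this gene's squared deviations on the log2 scale, so the spread within a group is largely between batches. The limma log2 difference was -0.025 (SE 0.16, adjusted p = 1), the fold lay between 0.757 and 1.28 at 95%, and the sign turned (0.0078) when libraries were scaled to the same median.

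The pattern of lower closed values in A and B and higher ones in C was thus common to the 3 C1q genes. The log2 differences of closed from open in batches A, B and C were -0.13, -0.17 and 0.33 for ENSRNOG00000012807. They were -0.23, -0.028 and 0.12 for ENSRNOG00000012749 and -0.044, -0.065 and 0.035 for ENSRNOG00000012804. Over all identifiers tested, the median difference had the same signs, at -0.061 in A, -0.054 in B and 0.018 in C. With 1 library per eye state in each batch, whether the difference varies between batches was not tested. The C1q signs were the same in all batches after scaling to equal FPKM sums, with differences of 0.32, 0.11 and 0.028 in batch C.

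Ratios between the C1q genes within a library are free of its scaling. ENSRNOG00000012807 stood at 1.90 to 2.40 times the FPKM of ENSRNOG00000012804, lowest in the open library of batch C and highest in the open library of batch B. ENSRNOG00000012749 stood at 1.93 to 2.36 times ENSRNOG00000012804. The summed C1q FPKM was 3.63, 3.69 and 3.43 times that of Cx3cr1 with closed eyes and 4.24, 3.70 and 2.85 times with open eyes in batches A, B and C. The closed ratios therefore lay inside the range of the open ones.

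Across the comparison, 0 of the 6 genes was called between closed and open eyes by limma without the block, and 0 had an unadjusted p under 0.05 there. Over all 12351 identifiers 0 were called (0%) and 0.542% had an unadjusted p under 0.05. With the batch as a replicate block 0 of the 6 were called, against 0.0081% of all identifiers. In that fit 1 of the 6, Aif1, had an unadjusted p under 0.05, as did 6.32% of all identifiers. The limma estimate was lower in closed eyes for 4 of the 6 genes and higher for 2, against 65.3% and 34.7% of all identifiers. It was higher for 4 of the 6 with libraries scaled to the same median and for 1 with equal FPKM sums. The median log2 difference was -0.028 over the 6 genes and -0.034 over all identifiers. For 5 of the 6 genes, all but Aif1, both ends of the 95% interval were within 1.5-fold of no change without the block, as for 83% of all identifiers. With the block this held for 6 of 6 genes and 96.6% of identifiers. The fit without the block counts differences between batches as spread between libraries, and its intervals were wider for all 6 genes. For ENSRNOG00000012804 the interval of the fold was 0.757 to 1.28 without the block and 0.880 to 1.10 with it. With the block it was 0.815 to 1.10 for Itgam and 0.879 to 1.09 for Cx3cr1. It was 0.855 to 1.18 for ENSRNOG00000012807 and 0.856 to 1.10 for ENSRNOG00000012749, also with the block. The intervals given per gene above are without the block unless stated. The groups were separated, with each closed library above or each below every open one, for 0 of the 6 genes, where 0.81% of identifiers were separated upward and 2.21% downward.

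**Figure D2:**
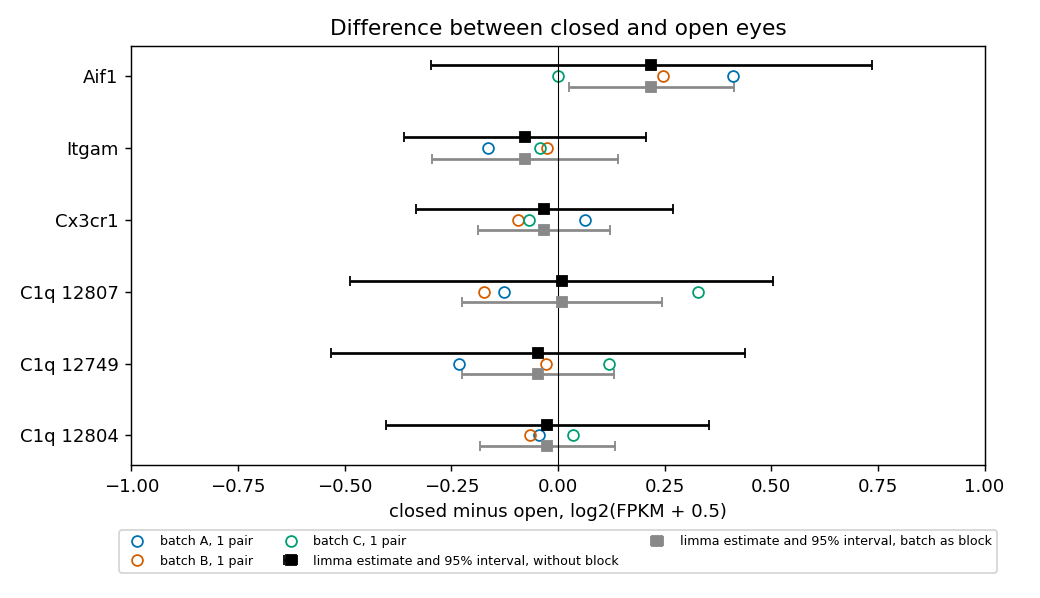
Closed minus open on the log2(FPKM + 0.5) scale (horizontal axis) for the 6 genes, with the limma estimate and 95% interval without the block (black) and with batch as a block (grey), and the difference within each batch (open circles, 1 pair of libraries each). Every black interval spans 0, and the C1q circles of batch C lie above 0 while those of batches A and B lie below it.

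The authors' deposited table of their own comparison came from the same libraries, in which 0 of the 6 genes had an adjusted p under 0.05 and 0.0344% of 20347 identifiers did. The mean normalized count in the authors' deposited table was 236 for Aif1, 243 for Itgam, 393 for Cx3cr1, and 625, 569 and 366 for the C1q genes ENSRNOG00000012807, ENSRNOG00000012749 and ENSRNOG00000012804. Aif1 had the largest fold of the 6 in the authors' deposited table, at 0.16 (log2) toward closed eyes, with p = 0.0672 before and 1 after adjustment. A smaller p than that of Aif1 was listed for 3.20% of identifiers in the authors' deposited table. The other 5 log2 folds in the authors' deposited table lay between -0.030 (ENSRNOG00000012749) and 0.011 (ENSRNOG00000012807). That of Itgam was -0.00075 in the authors' deposited table, against -0.077 in FPKM. For Cx3cr1 the sign differed between the sources, at 0.0080 in the authors' deposited table and -0.032 in FPKM, both close to 0.

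Batch took more of the spread of these genes than eye state did. Having more levels than eye state, batch takes a larger share even where it makes no difference. In the limma F-test of batch with eye state in the model, 4 of the 6 genes passed an adjusted p of 0.05, as did 49.7% of all identifiers, so this share is close to the background. The adjusted p was 0.00441 for Aif1, 0.0164 for ENSRNOG00000012807, 0.00429 for ENSRNOG00000012749 and 0.0100 for ENSRNOG00000012804. Cx3cr1 (adjusted p = 0.0583) and Itgam (adjusted p = 0.352) did not pass in this limma test. Both libraries of batch C lay below the other 4 for 5 of the 6 genes, all but Itgam, and for 51.7% of all identifiers. Of each gene's squared deviations on the log2 scale, batch took a median of 85.7% over the 6 genes and eye state 1.31%, against medians of 81.2% and 4.37% over all identifiers.

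The C1q genes and Aif1 differed in which batches stood apart. The batch means in A, B and C were 17.4, 18.2 and 12.5 FPKM for ENSRNOG00000012807, 17.1, 17.0 and 11.6 FPKM for ENSRNOG00000012749 and 7.69, 7.87 and 5.86 FPKM for ENSRNOG00000012804, so A and B were near each other and C was low. Aif1 instead had 13.3, 17.5 and 11.0 FPKM in A, B and C, with B high. The summed FPKM of the libraries was also lower in batch C, as given above. With libraries set to the same FPKM sum, 1 of the 6 genes differed between batches in limma, Aif1 (adjusted p = 0.0223), and the C1q genes had adjusted p of 0.162, 0.0686 and 0.225 in the order above, while 27.2% of all identifiers passed. This scaling was chosen after seeing the data. Under the planned scalings the C1q gene ENSRNOG00000012749 was called as well as Aif1. Their limma adjusted p were 0.0333 and 0.0443 with equal medians and 0.0390 and 0.0408 with equal upper quartiles. With quantile normalization they were 0.0432 and 0.0439. Of all identifiers, 30.3%, 30.2% and 27.9% passed under these scalings. Without the open library of batch C, Aif1 was again the 1 gene of the 6 called, and 13.4% of all identifiers passed. The Aif1 batch call held in 16 of 16 settings run, with limma adjusted p from 0.00217 to 0.0443.

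**Figure D3:**
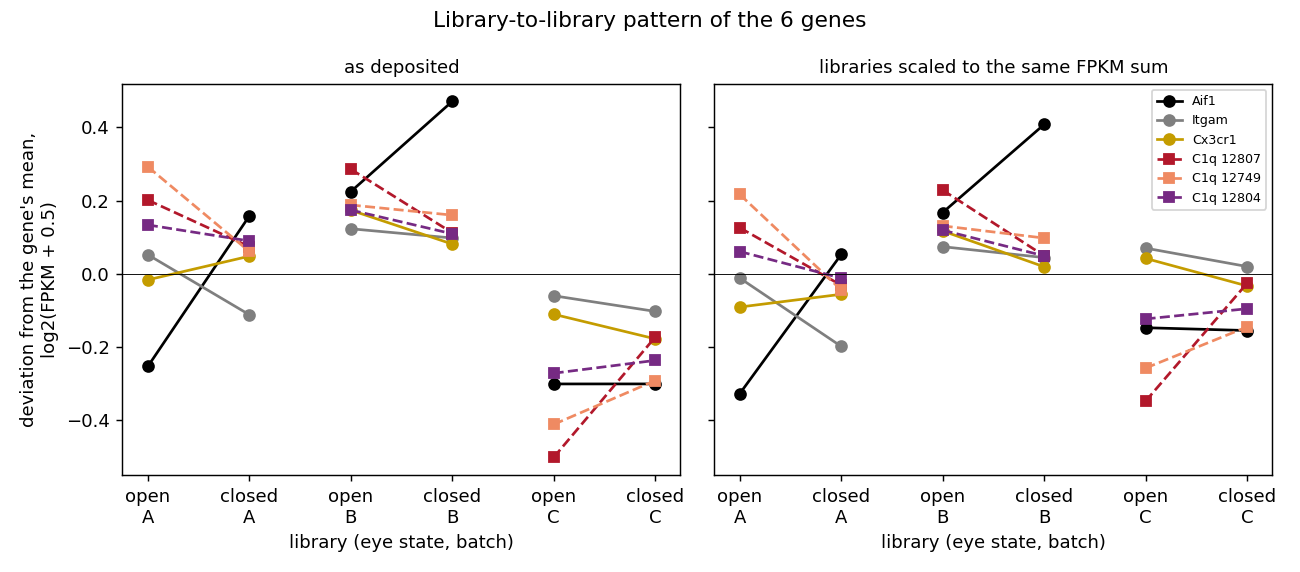
Deviation of each library from the gene's own mean on the log2(FPKM + 0.5) scale (vertical axis), for FPKM as deposited (left) and after scaling libraries to the same FPKM sum (right); lines join the open and closed library of a batch. Aif1 peaks in the closed library of batch B, and the C1q genes (squares) stay together, with their lowest values in the open library of batch C in both panels.

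As a description over 6 libraries that share 3 batches, the C1q genes correlated with one another at r of 0.944 to 0.974 on the log2(FPKM + 0.5) scale, and at 0.884 to 0.933 after scaling to the same FPKM sum. The microglial genes Aif1, Itgam and Cx3cr1 correlated at 0.536 to 0.828 as deposited and 0.0769 to 0.624 after that scaling. Between the families r was 0.566 to 0.883 as deposited and -0.0893 to 0.418 after scaling. The C1q likeness was not particular to the family: among the 12350 other identifiers, another C1q gene ranked between 545 and 1722 by r as deposited. After scaling to the same FPKM sum it ranked between 351 and 1095. As deposited, the identifiers outside the 6 with the highest mean r to the C1q genes were ENSRNOG00000021890 (0.985) and ENSRNOG00000001134 (0.984). Those with the highest mean r to Aif1, Itgam and Cx3cr1 on that scale were ENSRNOG00000014829 (0.889) and ENSRNOG00000004741 (0.888).

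**Figure D4:**
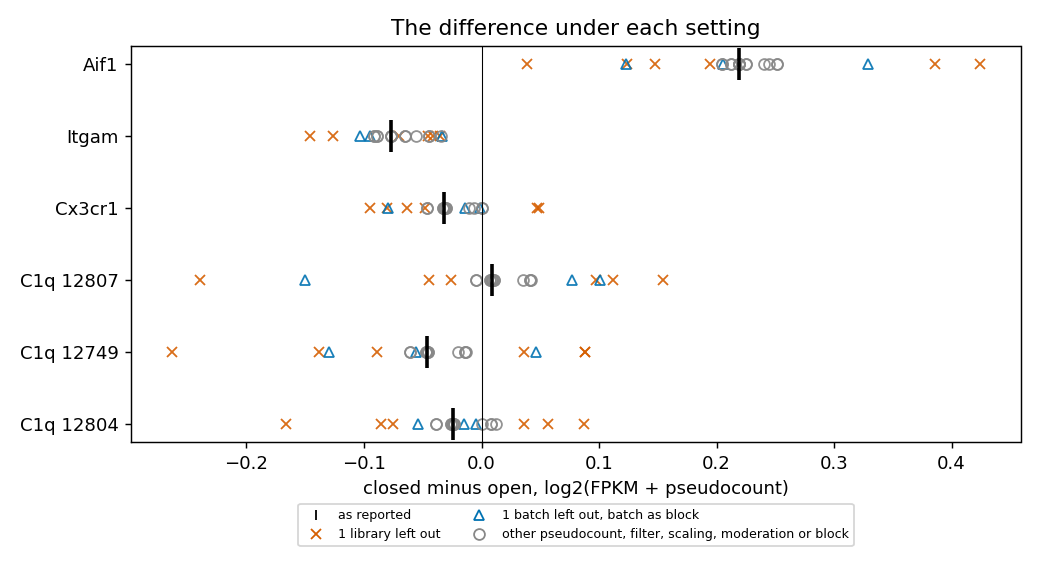
Closed minus open for each gene (horizontal axis, log2 scale) as reported (black bar), with 1 library left out (crosses), with 1 batch left out and batch as a block (triangles) and under the other settings (circles). Aif1 stayed above 0 (0.038 to 0.42) and Itgam below 0 (-0.15 to -0.034) in every setting run that tested them, while the C1q genes and Cx3cr1 fell on both sides of 0.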

How the data were processed

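The authors deposited FPKM values per Ensembl identifier for 6 libraries, per the labels, and a table of their own comparison, whose algorithm column reads deseq2 and which lists a log2 fold, p-values before and after adjustment, and a signal column read here, from its range, as the mean normalized count. STAR 2.3.14z, featureCounts 1.4.4, Cufflinks 2.1.1, DESeq2 1.4.1 and build rn5 are listed in the submitters' processing notes; the sources used here do not say which of them made the FPKM values, or give the annotation and filters. The deposited log2 fold ran open over closed (Spearman correlation with the FPKM difference -0.765 over 11147 identifiers) and was turned. FPKM keeps no depth: low values showed no common step of 1 read (commonest ratio bin 1.07% to 3.65% of identifiers per library pair), so depth is unknown and no count model was run.

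Here limma 3.58.1 (R 4.3.3, statmod 1.5.0) was fitted to log2(FPKM + 0.5) for identifiers averaging 1 FPKM or more, with trended, robust variances, two-sided, Benjamini-Hochberg over all 12351, threshold 0.05; folds on this scale understate changes of low genes. The fit with the block and the batch F-test were checked on simulated data with normal errors. The fit without the block was held to no criterion there. Batch letters are shared labels and pair the libraries: deviations of same-batch libraries correlated at 0.361 to 0.525. The 6 genes are all named; like identifiers were the 2 with the highest mean r per family. The genes, lists and tests were chosen with earlier results of these data known. The planned marker lists were not used, since 0 of 47357 reference rows carry an Ensembl identifier. Promoters are RefSeq's (GRCr8). Alternatives were other pseudocounts, filters, scalings, plain moderation, the block, and libraries or batches left out.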

Additional observations from a re-analysis of the deposited data

How the results depend on the processing

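All settings were planned except scaling to the same FPKM sum, which was chosen after seeing the data. None of the 6 genes was called between closed and open eyes in any of 23 alternatives (22 for Itgam, which a mean of at least 5 FPKM removed). Aif1 and Itgam kept their direction in all of them. Over all identifiers, the paired fit with batch as a replicate block gave 1 call, as it did with pseudocounts of 0.1 and 1, 0 calls with equal medians or equal FPKM sums, and 6, 16 and 2 calls with batch A, B or C left out; leaving out single libraries without the block gave 0 to 3. Differences near 0 changed sign. Cx3cr1 was at 0.00071 with equal medians, with or without the block. ENSRNOG00000012807 was at -0.0049 with equal FPKM sums, with or without the block, and at -0.15 in the blocked fit without batch C. ENSRNOG00000012749 was at 0.046 in the blocked fit without batch A. ENSRNOG00000012804 was at 0.0078 with equal medians, with or without the block, 0.00064 with equal upper quartiles and 0.012 with quantile normalization. Leaving out single libraries gave -0.095 to 0.049 for Cx3cr1, -0.24 to 0.15 for ENSRNOG00000012807, -0.26 to 0.088 for ENSRNOG00000012749 and -0.17 to 0.087 for ENSRNOG00000012804. Batch differences were called for 3739, 3729, 3449 and 3361 identifiers, and for 2, 2, 2 and 1 of the 6 genes, with equal medians, equal upper quartiles, quantile normalization and equal FPKM sums. A mean of at least 5 FPKM left 5 of the 6 genes in the test. All 5 were called, adding Cx3cr1 (limma adjusted p = 0.0480), as were 62.8% of the identifiers tested. Plain moderation gave 3 of the 6, losing ENSRNOG00000012807 (limma adjusted p = 0.0522), and 39.2% of identifiers. A mean above 0 FPKM gave the same 3 (limma adjusted p = 0.0607 for ENSRNOG00000012807) and 21.8% of identifiers. Leaving out single libraries gave 1658 to 4875 identifiers and 1 to 4 of the 6 genes. Fewer samples were fitted when libraries were left out, and in the eye-state fit without the block a left-out library also unbalances the batches. The cause was otherwise not tested. The block changed no call of the 6 genes. Depth per library is unknown, and the authors' mean normalized counts, 236 to 625 for the 6 genes, are averages that give no interval per library.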
